A study of Mus musculus with 16 samples.

Results

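Formins are actin-nucleating proteins that stay at the growing barbed end of a filament and feed it actin bound to profilin, giving long unbranched filaments. Many members are held shut by contact between their own ends until a signal releases them. In heart muscle they are studied for the assembly and upkeep of the thin filaments of the sarcomere, and FHOD3 is the member best known for that role. The 9 formins described here are Fmn1, Fhod1, Fhod3, Daam1, Daam2, Diaph1, Diaph2, Fmnl2 and Fmnl3, out of 15 mouse formin genes compared and 56953 genes in the count table. They were taken by name, with earlier results of these data in view. Fmn1 was picked on its low level in mutant hearts and its uneven level among wild type hearts, so those values are given as a description with no test. Which values chose the other 8 is not recorded, so their adjusted p-values against wild type are likewise a description and not independent support.

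The data were RNA sequencing of polyadenylated RNA from the left ventricle of 16 Bl6J mice, with 4 mice and 4 libraries in a group. Their genotype was either wild type (WT) or homozygous RBM20 P635L, a missense change in a splicing regulator of heart muscle. At 4 weeks of age all of them, controls included, received 1e12 viral genomes of AAV9 by the tail vein. The virus carried Tnpo3 cDNA, for a nuclear import receptor (WT Tnpo3 and P635L Tnpo3), or the control construct pCAG-iCre-T2A-eGFP, which expresses Cre recombinase and green fluorescent protein (WT Ctr and P635L Ctr), and ventricles were taken 12 weeks later, at 16 weeks. The promoter of the Tnpo3 virus, and whether it also carries Cre or the fluorescent protein, are not given. Males and females were used, and the sex of each mouse is not given.

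Library totals lay between 28493249 and 85922669 counts, and all 9 formins passed the filter on low counts, as did 18662 genes. Tnpo3 was at 41.6 to 49.4 CPM (counts scaled to library size with TMM factors) in the 8 control-virus libraries and at 231 to 723 CPM in the 8 Tnpo3 libraries. A single gene, ENSMUSG00000119584, took over 10% of the counts in WT Ctr replicates 2 and 4 and WT Tnpo3 replicate 4, and Xist exceeded the Y-linked genes in WT Ctr replicate 4 and WT Tnpo3 replicates 2 and 4. All 7 cardiomyocyte markers were detected in every group. Their summed level was 66877 to 80741 CPM in WT Ctr, 57900 to 78522 in WT Tnpo3, 51492 to 54278 in P635L Ctr and 50686 to 61377 in P635L Tnpo3. The 6 fibroblast markers summed to 837 to 1368, 998 to 1116, 1277 to 1918 and 924 to 1304 CPM in the same order. In whole ventricle, fewer cells of a type and less RNA per cell cannot be told apart.

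The exon sequences below belong to skipped exons named in the splicing results. The exon of Fmnl3 met the call rule in P635L Ctr hearts. The other exons printed did not, and were added after their values were seen. Of these, the paired forms of a late exon of Fmnl2 and a short exon of Fhod1 varied widely between libraries of 1 group. The last is the single Fmn1 exon in the splicing results. The sequences were read 5′ to 3′ on the gene's strand from GENCODE M21 transcripts (GRCm38). Exon length and neighbouring junctions were matched to the deposited GRCm39 coordinates. Capitals mark the 47 bases that the longer Fmnl2 form adds by a later 5′ splice site.
Fmnl3 83-base exon: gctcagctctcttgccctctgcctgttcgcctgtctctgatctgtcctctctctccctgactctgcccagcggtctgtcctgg
Fmnl2 47-base form: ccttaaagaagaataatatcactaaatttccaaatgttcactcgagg
Fmnl2 94-base form: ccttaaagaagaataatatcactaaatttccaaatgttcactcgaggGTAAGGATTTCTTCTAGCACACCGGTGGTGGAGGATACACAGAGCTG
Fhod1 24-base exon: acttcaccaaactgctcccgtttg
Fmn1 108-base exon: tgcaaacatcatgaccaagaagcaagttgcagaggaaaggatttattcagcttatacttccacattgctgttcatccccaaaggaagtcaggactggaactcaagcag

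Levels were compared between genes as CPM per kb of exon. In WT Ctr, Fhod3 was the highest of the 15 formins at 33.8 ± 4.58 CPM per kb (SD, n = 4), followed by Fmnl3 at 13.7 ± 1.71, a formin related to the leukocyte formin Fmnl1. Of the summed level per kb of the 9 formins, Fhod3 made up 44.7% to 53.5% in WT Ctr, 41.7% to 54.8% in WT Tnpo3, 39.1% to 47.7% in P635L Ctr and 35.3% to 43.8% in P635L Tnpo3. Formins outside the 9 are not in that sum. Next came Diaph1 at 6.60 ± 0.639, Daam1 at 6.54 ± 1.05 and Fhod1 at 6.06 ± 1.18 CPM per kb, whose libraries overlapped, so that their order was not resolved. Diaph1 and Diaph2 encode formins of the diaphanous family, and Daam1 and Daam2 bind Dishevelled in Wnt signalling. A lower tier held Fmnl2 at 1.56 ± 0.241 and Daam2 at 1.47 ± 0.261, again overlapping, then Diaph2 at 0.935 ± 0.289 and Fmn1 at 0.932 ± 0.190. Of the formins outside the 9, Fmnl1 (8.39) and Inf2 (6.95) lay among the middle tier, and Diaph3 (0.137), Fhdc1 (0.0686), Fmn2 (0.0112) and Grid2ip (0.0034) were lowest. Fmn2 and Grid2ip did not pass the filter on low counts.

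**Figure D1:**
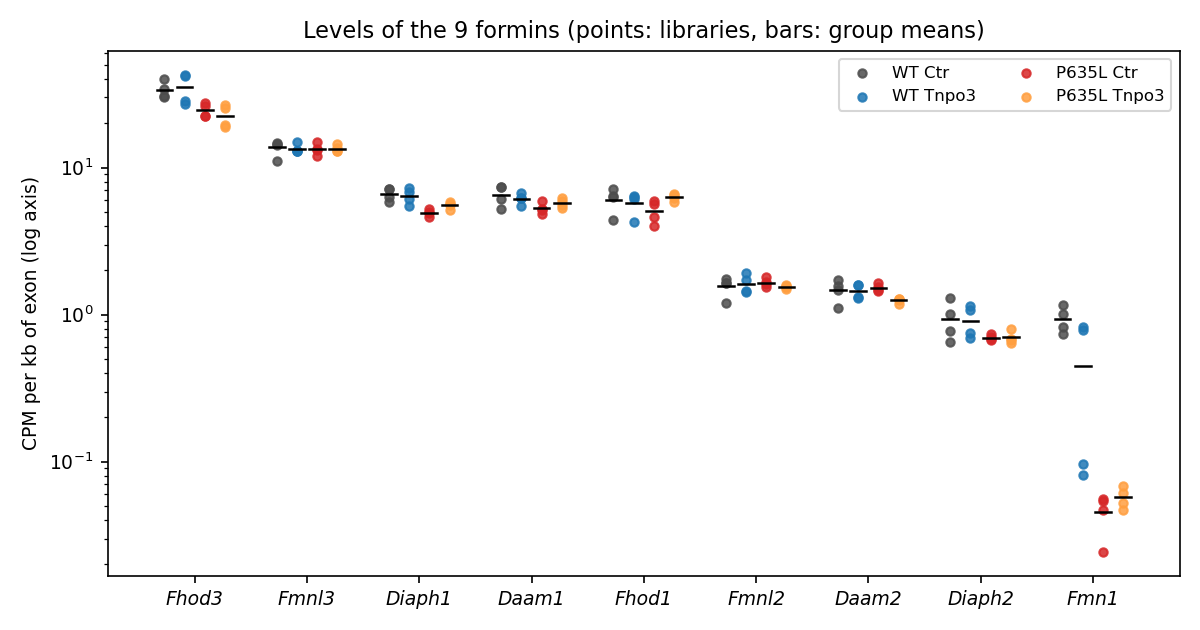
Level of the 9 formins in each library as CPM per kb of exon on a log axis, coloured by group, with bars at group means. Fhod3 is highest in every group, and Fmn1 alone spreads over more than a factor of 10 between libraries.

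Fmn1, the founding formin, which shapes limb buds and supports cell junctions, differed most between groups. The gene lies on chromosome 2 (GRCm39, 113158081 to 113547112, plus strand). Its level was 11.8, 16.2, 13.2 and 18.7 CPM in WT Ctr replicates 1 to 4, from 327, 393, 482 and 644 counts. In P635L Ctr it was 0.392, 0.897, 0.867 and 0.754 CPM, from 17, 85, 38 and 40 counts. All 4 mutant control hearts lay more than 10-fold below every WT Ctr heart. In P635L Tnpo3 the level was 1.10, 0.845, 0.759 and 0.982 CPM, from 45, 43, 39 and 51 counts, a range that overlapped P635L Ctr.

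The WT Tnpo3 hearts split. Replicates 2 and 3 had 12.6 and 13.2 CPM of Fmn1, within the WT Ctr range, and replicates 1 and 4 had 1.31 and 1.55 CPM, from 43 and 47 counts. Those latter hearts lay below every other WT heart and just above the highest of the 8 mutant hearts, at 1.10 CPM. Of the 16 hearts, 6 were thus high and 10 low, with no value between 1.55 and 11.8 CPM. ENSMUSG00000119584 took 1.39% and 22.7% of the counts in WT Tnpo3 replicates 1 and 4, and 0.749% and 1.23% in replicates 2 and 3. Xist exceeded the Y-linked genes in replicates 2 and 4 and not in replicates 1 and 3. Tnpo3 stood at 282 and 507 CPM in replicates 1 and 4 and at 262 and 231 CPM in replicates 2 and 3, so the hearts low in Fmn1 had the higher Tnpo3 values. Cardiomyocyte markers summed to 57900 and 58177 CPM in replicates 1 and 4 and to 78522 and 64217 CPM in replicates 2 and 3. The part of these library properties, of Tnpo3 and of these markers in the split was not tested.

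**Figure D2:**
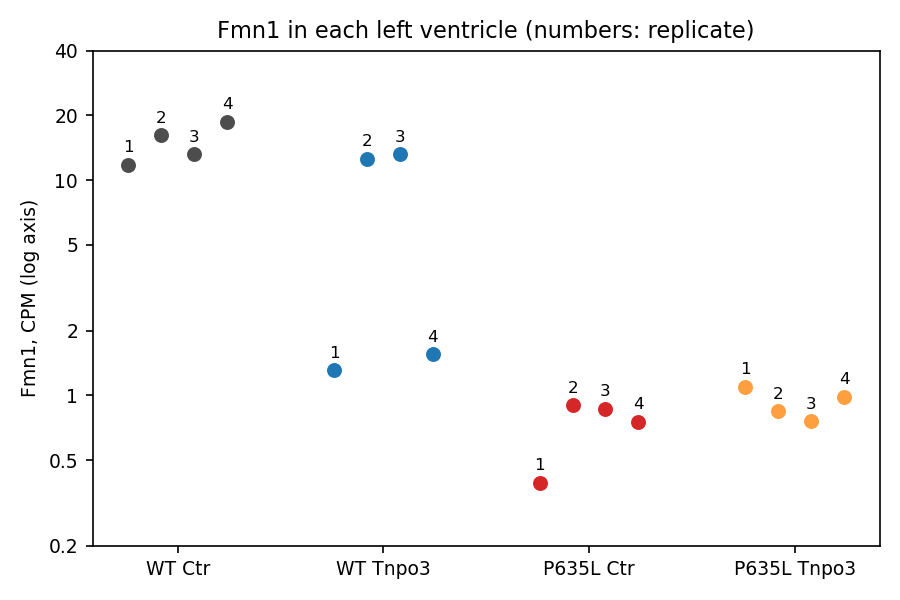
Fmn1 level in CPM on a log axis for each of the 16 left ventricles, by group, with the replicate number above each point. The 4 WT Ctr hearts and WT Tnpo3 replicates 2 and 3 lie between 11.8 and 18.7 CPM, and the other 10 hearts lie at or below 1.55 CPM.

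The fitted log2 fold change of Fmn1 against WT Ctr was -4.34 (SE 0.658) in P635L Ctr, a level 20.3-fold lower, -4.02 (SE 0.649) in P635L Tnpo3 and -1.06 (SE 0.565) in WT Tnpo3. The WT Tnpo3 mean stands for no single heart, since the values lay on either side of it. Between P635L Tnpo3 and WT Tnpo3 the log2 fold change was -2.96 (SE 0.629). Both groups of P635L Tnpo3 against P635L Ctr are mutant hearts, whose low level entered the choice of Fmn1. That contrast is therefore not shown to be independent of the choice. Its log2 fold change was 0.32 (SE 0.644) with an adjusted p of 0.856 by edgeR's quasi-likelihood test. The exact permutation test gave p = 0.257, so a difference between the mutant groups was not shown. In the authors' deposited DESeq2 table, the log2 fold change of P635L Ctr over WT Ctr for Fmn1 was -4.33. Antisense genes overlapping Fmn1 averaged at most 1.81 counts per library.

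The 5 genes whose log2 CPM most resembled that of Fmn1 over the 16 libraries, among 12489 genes compared, were Gchfr (Pearson r = 0.932), Zfp605 (0.922), Isoc2a (0.919), Hrc (0.893) and Trabd (0.883). These correlations run over libraries that differ in genotype, virus and depth, so differences between groups enter them. They carry no p. Gchfr, which encodes the feedback regulator of GTP cyclohydrolase, was at 8.93 to 12.8 CPM in WT Ctr and at 1.64 to 3.10 CPM in P635L Ctr. In WT Tnpo3 replicates 1 to 4 it was at 4.80, 11.5, 10.9 and 3.90 CPM. In P635L Tnpo3 it was at 3.93 to 5.03 CPM. Since these genes were picked for likeness to Fmn1 over the same libraries, a shared pattern in WT Tnpo3 follows from the choice. Hrc encodes the histidine-rich calcium-binding protein of the sarcoplasmic reticulum. Its levels in WT Tnpo3 were 904, 1503, 1387 and 1125 CPM, against 1254 to 1696 in WT Ctr, 647 to 787 in P635L Ctr and 836 to 1168 in P635L Tnpo3. Gchfr lies on chromosome 2, as Fmn1 does, and the others lie on chromosomes 5 (Zfp605), 7 (Isoc2a and Hrc) and 15 (Trabd).

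Within 1 Mb of either end of Fmn1 the table lists 38 genes, of which 15 passed the filter. By edgeR 0 of the 15 met the adjusted p of 0.05 between P635L Ctr and WT Ctr, where 14.2% of all genes tested did; 2 had an unadjusted p under 0.05, and DESeq2 called 1, Ryr3. The nearest tested gene on the lower side is Ryr3, which encodes a ryanodine receptor, a calcium release channel. It was at 0.868, 1.90, 1.62 and 1.71 CPM in WT Ctr and at 0.207, 0.908, 0.981 and 0.791 CPM in P635L Ctr. The groups overlapped, with a log2 fold change of -1.06 and an edgeR adjusted p of 0.0732. The nearest tested gene on the other side, Arhgap11a, had a log2 fold change of -0.39 (adjusted p = 0.516 by edgeR). The other 13 lay between -0.27 (Actc1, cardiac alpha-actin) and 0.31 (Emc7, a subunit of the membrane insertion complex).

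**Figure D3:**
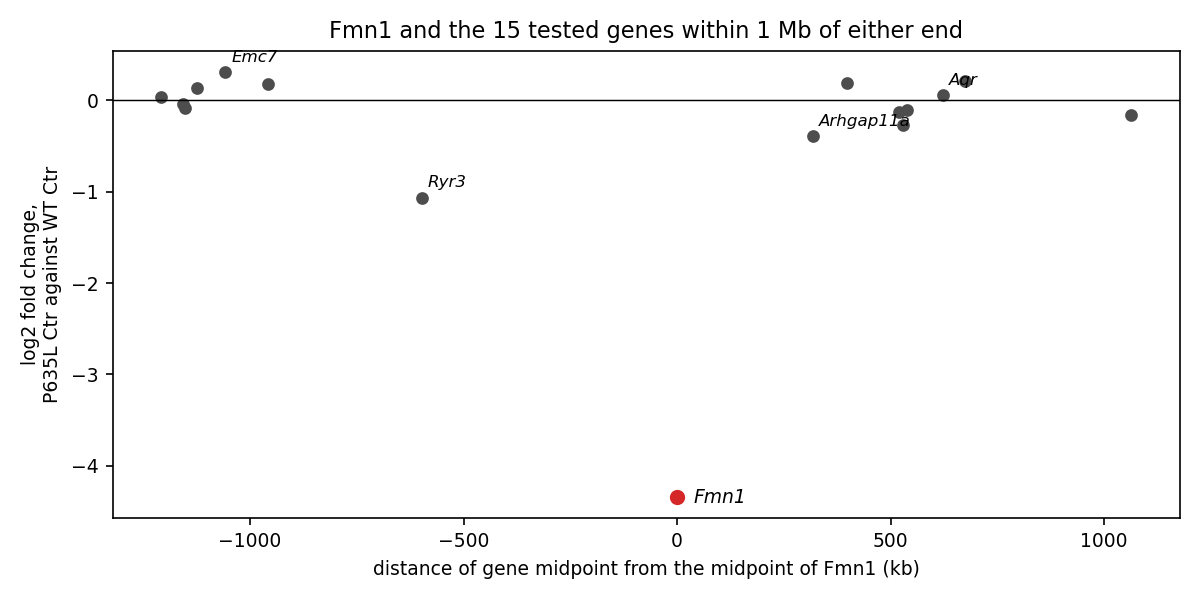
Log2 fold change between P635L Ctr and WT Ctr (vertical axis) against the distance in kb of each gene's midpoint from the midpoint of Fmn1 (horizontal axis), for Fmn1 in red and the 15 tested genes within 1 Mb of either end in grey. Fmn1 stands at -4.34, Ryr3 at -1.06 and the other 14 between -0.39 and 0.31.

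Fhod3 lies on chromosome 18 (24841680 to 25266558, plus strand). Its level was 218, 291, 223 and 248 CPM in WT Ctr and 162, 164, 189 and 199 CPM in P635L Ctr. The groups did not overlap, as for 19.1% of all genes in this contrast, and the log2 fold change of -0.46 (SE 0.164) did not meet the threshold in edgeR's quasi-likelihood test (adjusted p = 0.0722). It did with edgeR fitted to only these groups (log2 fold change -0.44, adjusted p = 0.0294) and with DESeq2 (adjusted p = 0.0491). In the authors' deposited table from DESeq2, Fhod3 had an adjusted p of 0.00733 and a log2 fold change of -0.44. Leaving out the 3 libraries rich in ENSMUSG00000119584 left only replicates 1 and 3 of WT Ctr, and removed its highest heart, at 291 CPM. The log2 fold change of Fhod3 was then -0.27 with an edgeR adjusted p of 0.372.

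Among WT Tnpo3 hearts Fhod3 was at 304, 311, 196 and 207 CPM, and in P635L Tnpo3 hearts at 184, 141, 194 and 137 CPM. Every mutant heart lay below every WT heart here, although P635L Tnpo3 replicate 3 and WT Tnpo3 replicate 3 were close at 194 and 196 CPM. The log2 fold change was -0.64 (SE 0.164, adjusted p = 0.0379 by edgeR), a level 1.55-fold lower. The call was lost in 9 of 17 alternative settings. One of them leaves out the 3 libraries with Xist above Y-linked genes, all from WT mice (log2 fold change -0.60, adjusted p = 0.103 by edgeR). Leaving out WT Tnpo3 replicates 1 or 2, or P635L Tnpo3 replicates 1, 2 or 4, also lost it, with edgeR adjusted p of 0.0546 to 0.145. Against WT Ctr, P635L Tnpo3 hearts had a log2 fold change of -0.58 (SE 0.164, adjusted p = 0.0639 by edgeR, 0.023 by DESeq2). For this contrast the authors' deposited table from DESeq2 gave Fhod3 an adjusted p of 0.0128 and a log2 fold change of -0.55. Between the mutant groups the difference in Fhod3 was -0.12 (SE 0.163, adjusted p = 0.757 by edgeR), and between the WT groups 0.06 (SE 0.163). The summed cardiomyocyte markers were lower in both mutant groups than in WT Ctr, by the ranges given above, and their part in the Fhod3 values was not tested. Tpgs2 overlaps Fhod3 on the opposite strand with a mean of 591 counts per library, and whether counting used strand is not stated.

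Fhod1, a formin of stress fibres related to Fhod3, lies on chromosome 8 (106055795 to 106074585, minus strand). Hearts of WT Ctr had 29.3, 20.4, 30.1 and 33.3 CPM, those of WT Tnpo3 19.9, 28.4, 29.7 and 29.4, those of P635L Ctr 26.5, 21.4, 27.7 and 18.8 and those of P635L Tnpo3 27.4, 29.2, 30.7 and 30.4 CPM. Low hearts occurred in every group except P635L Tnpo3. P635L Tnpo3 exceeded P635L Ctr by a log2 fold change of 0.32 (SE 0.158, adjusted p = 0.29 by edgeR). The exact permutation p of 0.0571 became 0.171 after adjustment over the 9 formins. Tmem208 overlaps Fhod1 on the opposite strand, with a mean of 1082 counts per library.

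Diaph1, on chromosome 18 (37976654 to 38068529, minus strand), was the only formin besides Fmn1 to meet the threshold between P635L Ctr and WT Ctr when edgeR was fitted to all 16 libraries. Its level was 40.1, 45.3, 37.0 and 45.1 CPM in WT Ctr and 31.8, 31.1, 29.3 and 33.1 CPM in P635L Ctr, with no overlap. The log2 fold change was -0.42 (SE 0.104, adjusted p = 0.0104 by edgeR), a level 1.34-fold lower. The highest WT Ctr values came from replicates 2 and 4, the libraries rich in ENSMUSG00000119584. Without those and WT Tnpo3 replicate 4, the Diaph1 log2 fold change was -0.26 with an edgeR adjusted p of 0.123, and without the filter on low counts it was -0.37 (adjusted p = 0.0701 by edgeR). In P635L Tnpo3 Diaph1 was at 35.2, 32.7, 37.3 and 36.1 CPM, overlapping WT Ctr at its lower end. The difference from P635L Ctr was 0.17 (SE 0.103, adjusted p = 0.393 by edgeR).

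Diaph2, on chromosome X (128650491 to 129366583, plus strand), also varied between libraries of the WT groups. Its level was 8.90, 11.7, 7.51 and 15.1 CPM in WT Ctr and 12.4, 8.60, 7.99 and 13.1 CPM in WT Tnpo3. The 8 mutant hearts lay between 7.37 and 9.30 CPM. WT Ctr replicates 2 and 4 and WT Tnpo3 replicates 1 and 4 lay above all of them, and the other WT hearts did not. The log2 fold change of Diaph2 between P635L Ctr and WT Ctr was -0.42 (SE 0.194, adjusted p = 0.166 by edgeR). Without the 3 libraries rich in ENSMUSG00000119584, which leaves only replicates 1 and 3 of WT Ctr, it was 0.02 (adjusted p = 0.97 by edgeR). The cause of the spread was not tested.

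For Daam1 and Daam2 no contrast met the threshold when edgeR was fitted to all 16 libraries. Daam1 (chromosome 12, 71877852 to 72039107, plus strand) was at 42.3 to 59.9 CPM in WT Ctr and at 39.5 to 48.4 in P635L Ctr, overlapping ranges with a log2 fold change of -0.30 (SE 0.117, adjusted p = 0.0956 by edgeR). Without WT Ctr replicate 1 the Daam1 log2 fold change was -0.39 and met the threshold (adjusted p = 0.0275 by edgeR). Daam2 (chromosome 17, 49763050 to 49871371, minus strand) was at 14.4, 14.0, 16.1 and 15 CPM in P635L Ctr and at 11.6, 12.3, 12.5 and 12.5 CPM in P635L Tnpo3. All 4 hearts of the latter group lay below all 4 of the former. Non-overlap was found for 20.4% of all genes in this contrast, and Daam2 was the only 1 of the 9 formins to show it. The log2 fold change of -0.28 (SE 0.125) had an adjusted p of 0.234 by edgeR, and of 0.037 when edgeR was fitted to those groups only. The exact permutation p was 0.0286, the smallest that 4 against 4 can give, and 0.171 after adjustment over the 9 formins. WT Ctr hearts spanned 10.8 to 16.8 CPM of Daam2, a range that held both mutant groups.

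Fmnl2 and Fmnl3, formins linked to lamellipodia and filopodia, met the threshold in no contrast when edgeR was fitted to all 16 libraries. Fmnl2 (chromosome 2, 52747872 to 53023816, plus strand) lay between 6.81 and 10.7 CPM in all 16 libraries. Fmnl3 (chromosome 15, 99215106 to 99268363, minus strand) lay between 56.0 and 75.2 CPM, and its log2 fold changes in the 5 contrasts between groups ran from -0.04 to 0.01, each with an SE of 0.108. The 2-SE range around the mutant against WT value of Fmnl3 therefore covers changes of either sign.

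**Figure D4:**
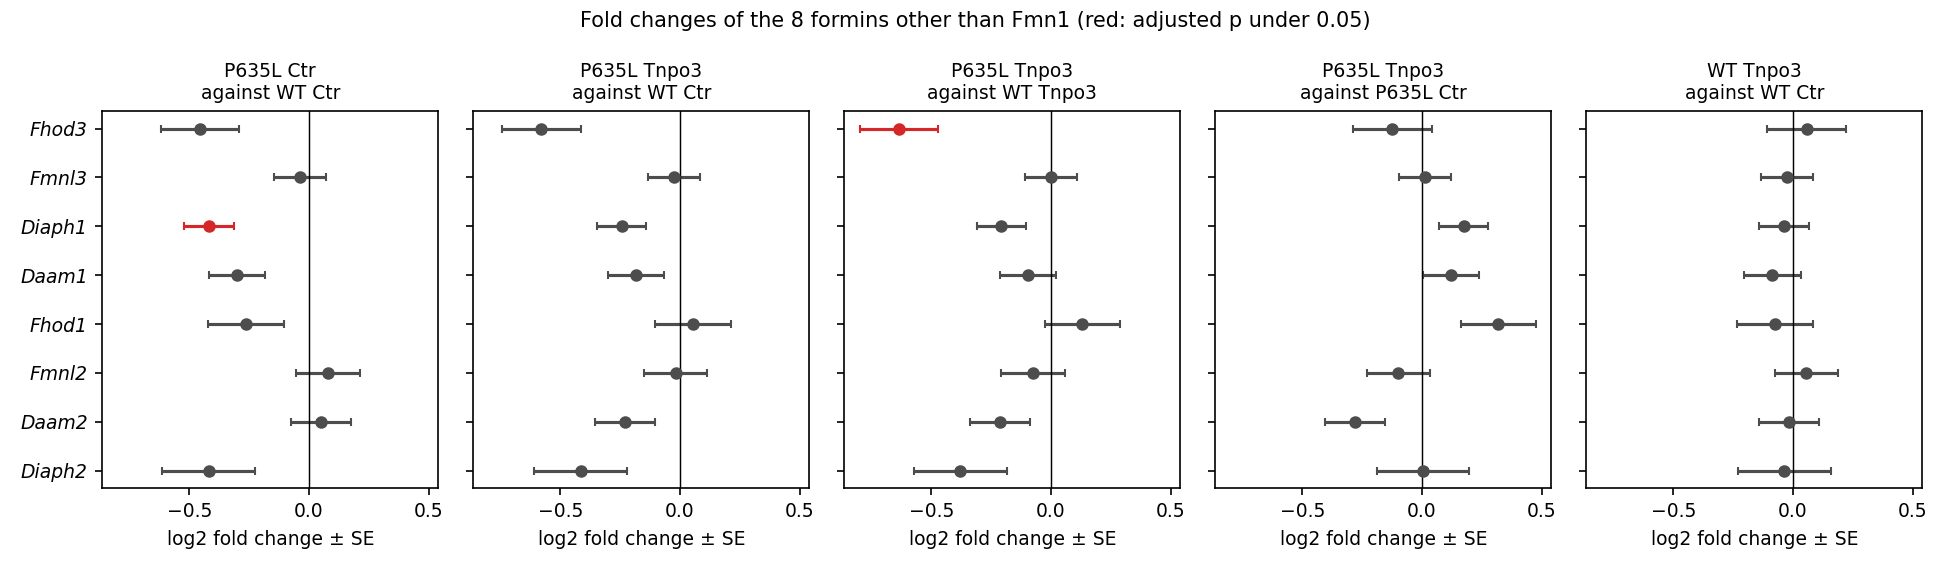
Log2 fold change with its SE (horizontal axis) of the 8 formins other than Fmn1 in the 5 contrasts between groups (both mutant groups against WT Ctr, P635L Tnpo3 against WT Tnpo3 and against P635L Ctr, and WT Tnpo3 against WT Ctr), 4 hearts per group, with red for an edgeR adjusted p under 0.05. The red points are Diaph1 in P635L Ctr against WT Ctr, at -0.42, and Fhod3 in P635L Tnpo3 against WT Tnpo3, at -0.64, and all values between the WT groups lie between -0.09 and 0.06.

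As a count, 2 of the 9 formins, both lower, met the adjusted p of 0.05 between P635L Ctr and WT Ctr, beside 14.2% of all genes tested and 7.14% of all genes called lower. Between P635L Tnpo3 and WT Ctr it was 1 of 9 (Fmn1) beside 3.07%, and between P635L Tnpo3 and WT Tnpo3 2 of 9 (Fmn1 and Fhod3) beside 3.72%. Since Fmn1 was chosen on these contrasts, nothing is read from those counts. Between P635L Tnpo3 and P635L Ctr 0 of 9 met it by edgeR, beside 3.88% of all genes, with 1 of 9 (Daam2) at an unadjusted p under 0.05. With DESeq2 0 of 9 met it there too. Between the WT groups 0 of 9 met it, beside 0.00536% of all genes, and 0 of 9 had an unadjusted p under 0.05 or were called by DESeq2. Groups did not overlap for 3 of 9 formins (Fmn1, Fhod3 and Diaph1) in P635L Ctr against WT Ctr beside 19.1% of all genes, and for 2 of 9 (Fmn1 and Fhod3) in P635L Tnpo3 against WT Ctr beside 11.7%. In P635L Tnpo3 against WT Tnpo3 it was 3 of 9 (Fmn1, Fhod3 and Daam2) beside 11.5%, and between the WT groups 0 of 9 beside 1.09%. The median log2 fold change of the 8 formins other than Fmn1 was -0.28 in P635L Ctr against WT Ctr, where the median of all genes was -0.05, and 0.01 in P635L Tnpo3 against P635L Ctr, where that of all genes was also 0.01. The interaction, which asks whether the Tnpo3 virus acts differently in mutant and WT hearts, was called for 0 of 9 formins beside 0.504% of all genes, with 0 of 9 at an unadjusted p under 0.05 and 0 called by DESeq2.

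Other genes of actin assembly were read from 3 lists. The Arp2/3 complex and its activators, which build branched actin in place of the unbranched filaments of formins, had 0 of 11 genes called by edgeR in any of the 6 comparisons, with 0 to 2 at an unadjusted p under 0.05 and 0 to 1 (Cttn, in P635L Ctr against WT Ctr) called by DESeq2.

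Of 14 profilin, capping and turnover genes, 1 was called by edgeR, in 1 of 6 comparisons. That comparison was P635L Tnpo3 against P635L Ctr, where 4 had an unadjusted p under 0.05 and DESeq2 called 2, Cfl2 and Cap2. In the other comparisons 1 to 4 had an unadjusted p under 0.05 and DESeq2 called 0. Cap2, a cyclase-associated protein that recycles actin monomers in heart muscle, was at 76.1 ± 5.11 CPM in P635L Tnpo3 and, in P635L Ctr hearts, at 128 ± 18.1 CPM (SD, n = 4 each), with -0.75 as the log2 fold change (SE 0.188, adjusted p = 0.0318 by edgeR), beside 2.25% of all genes lower. The Cap2 call was lost in 7 of 17 alternatives. Of 12 genes of the actin-sensing MRTF and SRF pathway, Ccn2 (log2 fold change 2.76, SE 0.429) and Ccn1 (1.11, SE 0.213), which encode secreted matricellular proteins, were higher in P635L Ctr than in WT Ctr, beside 7.07% of all genes higher, and were called in all 17 alternatives. Their edgeR adjusted p-values were 0.000538 and 0.00181. Fibroblast markers rose in the same contrast, with 5 of 6 called higher, and their part in these values was not tested. Of the 12 genes edgeR called 2 there, 4 had an unadjusted p under 0.05, and DESeq2 called 3 (Vcl, Ccn1 and Ccn2). Acta2, smooth muscle actin, was lower in P635L Tnpo3 than in WT Tnpo3 (log2 fold change -0.88, SE 0.185, adjusted p = 0.0121 by edgeR), beside 2% of all genes lower. In that contrast edgeR called 1 of the 12 and DESeq2 called 3 (Acta1, Acta2 and Ccn2), with Ccn2 higher at a log2 fold change of 1.31 by edgeR. Between P635L Ctr and WT Ctr the Acta2 log2 fold change was -0.27, which edgeR did not call. The Acta2 call was lost without WT Tnpo3 replicate 2 (log2 fold change -0.76, adjusted p = 0.0539 by edgeR).

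Splicing was read from the authors' deposited rMATS tables, which list the inclusion level of each library, 0 when all junction reads skip the feature and 1 when all include it. The libraries' order is not stated, so values are given in listed order, and the 3 tables share the WT Ctr libraries. The 9 formins had 31 events in the table of P635L Ctr against WT Ctr, 27 in that of P635L Tnpo3 and 30 in that of WT Tnpo3. Calling an event took an authors' FDR under 0.05, a change in mean inclusion of 0.1 or more and, in both groups, 10 or more junction reads in the average library. Calls were 1 of 25 formin events with enough reads beside 2.52% of all events for P635L Ctr, 1 of 23 beside 2.12% for P635L Tnpo3 and 0 of 24 beside 0.941% for WT Tnpo3. Events of 1 gene can share exons and reads.

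The event called in P635L Ctr was the 83-base exon of Fmnl3 printed above (chr15:99226975-99227057, minus strand), which the annotation places in a transcript with no coding sequence. Its inclusion was 0.166, 0.42, 0.19 and 0.092 in WT Ctr and 0.031, 0.156, 0.051 and 0.043 in P635L Ctr. The groups overlapped, and the mean difference of -0.147 had an authors' FDR of 0.0356. Without WT Ctr listed library 2, at 0.42, the difference fell under 0.1. Inclusion was 0.023, 0.092, 0 and 0.299 in P635L Tnpo3 (authors' FDR 0.386) and 0.056, 0.019, 0.16 and 0.233 in WT Tnpo3 (authors' FDR 0.901). Between the mutant groups the mean was 0.0332 higher in P635L Tnpo3, with p = 0.771 in the exact permutation test. The neighbouring 153-base exon of Fmnl3 lay just outside the call rule for P635L Tnpo3, with 1, 1, 1 and 0.916 in WT Ctr against 0.896, 0.934, 0.792 and 0.922, a difference of -0.093 (authors' FDR 0.0286). It met the rule without WT Ctr listed library 4 (-0.114) or P635L Tnpo3 listed library 2 (-0.109) or 4 (-0.105).

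The event called in P635L Tnpo3 was a retained intron of Daam2, 3055 bases long, with few reads, 11.2 and 13.5 per library. Together with its flanking exons the intron spans chr17:49780314-49783583 (minus strand). Its level was 0, 0, 0.231 and 0.394 in WT Ctr and 0, 0, 0.111 and 0.061 in P635L Tnpo3, a difference of -0.113 (authors' FDR 0.00784). Both groups held 2 libraries at 0 and overlapped. With the authors' FDR kept, the event no longer met the rule on leaving out WT Ctr listed library 3 or 4, or P635L Tnpo3 listed library 1, 2 or 4. The difference was -0.034 without WT Ctr listed library 4, and without P635L Tnpo3 listed library 4 the reads of that group fell to 9.33 per library, under the minimum. In P635L Ctr it was 0.091, 0.364, 0.143 and 0.04, and in WT Tnpo3 0.6, 0, 0.2 and 0.

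The late exon of Fmnl2 was used in 2 forms (chr2:53020424-53020470 and chr2:53020424-53020517, plus strand), both coding in the annotation, where the longer one ends at the start of the stop codon. Scored against skipping, the 94-base event had an inclusion of 0.369, 0.485, 0.288 and 0.233 in WT Ctr and of 0.373, 0.434, 0.584 and 0.396 in P635L Ctr (difference 0.103, authors' FDR 0.707). Reads across the junction into the exon, which both forms share, count toward this level. In P635L Tnpo3 it was 0.463, 0.204, 0.834 and 0.574 (authors' FDR 0.808), and in WT Tnpo3 0.295, 0.493, 0.329 and 0.293. The overlap of all groups left no difference beyond the spread. The event that sets the 2 forms against each other was called in no group. Its mean level for the longer form was 0.688 in WT Ctr, 0.729 in P635L Ctr, 0.669 in P635L Tnpo3 and 0.711 in WT Tnpo3. A 153-base exon of Fmnl2 had an authors' FDR of 0.000825 in P635L Tnpo3 with a difference of -0.419, but only 6 and 5.25 reads per library, under the minimum.

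The 24-base exon of Fhod1 (chr8:106062869-106062892, minus strand), from an annotated transcript with a retained intron, ranged from 0.084 to 0.552 in WT Ctr and from 0.298 to 0.672 in P635L Ctr (difference 0.135, authors' FDR 0.689). In P635L Tnpo3 it ranged from 0 to 0.406 and in WT Tnpo3 from 0.141 to 0.267. The retained intron of 212 bases in Fhod1 was at 0.429 to 0.593 in WT Ctr and at 0.397 to 0.455 in P635L Ctr, a difference of -0.102 with an authors' FDR of 0.118.

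**Figure D5:**
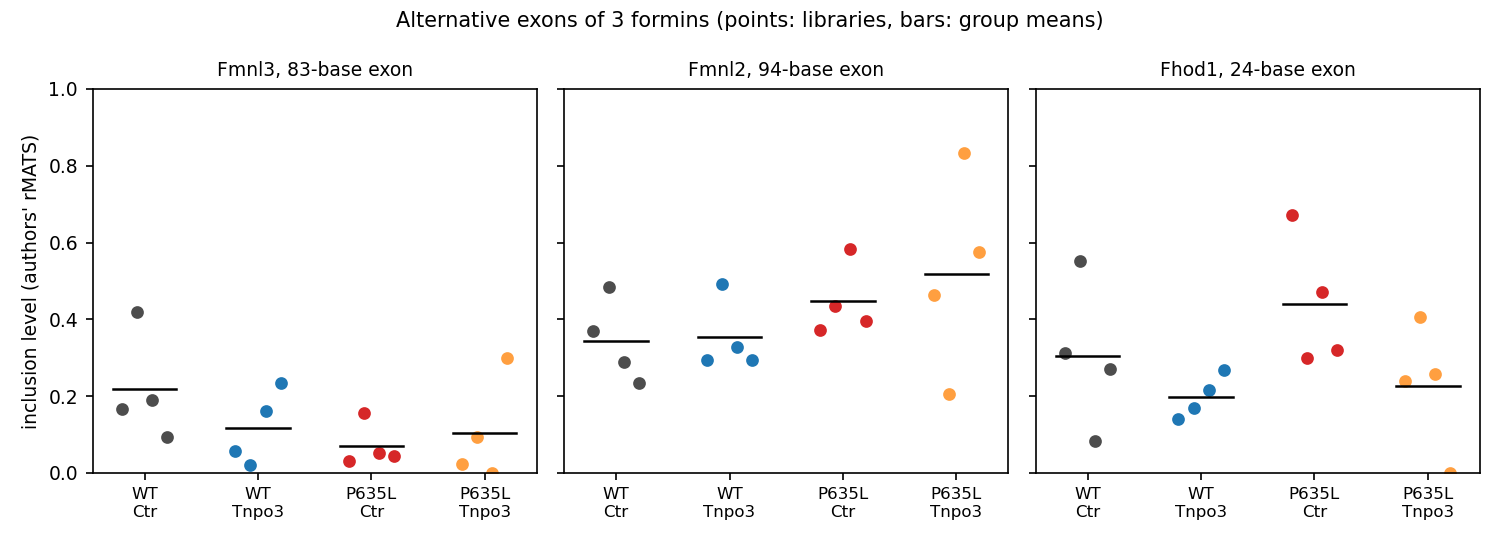
Inclusion level from the authors' rMATS tables (vertical axis, 0 to 1) of 1 alternative exon each of Fmnl3, Fmnl2 and Fhod1, with a point per library in listed order and a bar at the group mean. Groups overlap for all 3 exons, and the Fmnl3 mean of WT Ctr rests on a library at 0.42.

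Fhod3 had no alternative exon among its events. In the table of P635L Ctr its 6 events held 15346 inclusion reads and 15 skipping reads, the lowest level of a library was 0.922 and the largest group difference was 0.0195. The 4 events in the table of P635L Tnpo3 had a lowest level of 0.872 and a largest difference of 0.032. For Fmn1 the tables held a single event, the 108-base exon printed above (chr2:113429914-113430021, plus strand; exon 14 of 20 in the matched transcript), in the table of P635L Ctr only. WT Ctr libraries had 6, 10, 23 and 8 reads that skip it and 0 that include it, and P635L Ctr libraries had 0, 2, 6 and 0 that skip it and 1 that includes it. The WT Ctr reads show the form of Fmn1 without that exon, and the reads of P635L Ctr were too few to compare.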

How the data were processed

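Raw counts per gene were made by the authors with featureCounts 2.0.6 after STAR 2.7.9a on GRCm39, per the submitters' processing notes; strand use in counting is not given in the sources used here. The deposited DESeq2 tables list, per the file headers, a log2 fold change and p-values for each gene, a mean normalised signal and a test score; only the first and the adjusted p were read. The authors' rMATS tables, per the file headers, list junction read counts, each library's inclusion fraction, p-values and a difference score.

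Here edgeR 4.0.16 (R 4.3.3; quasi-likelihood, robust, TMM, filterByExpr) was fitted to all 16 libraries and 18662 genes with 12 residual degrees of freedom and tested on simulated data; calls are at a Benjamini-Hochberg adjusted p under 0.05 over all genes, two-sided. DESeq2 1.42.0 was an alternative. Inclusion differences are other group minus WT Ctr. Exact permutation tests ran over 70 assignments. Replicates are separate mice as far as the labels say. Replicate numbers were not taken to pair mice (closing section).

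Named genes are the 9 formins, the other 6 mouse formins, the 5 genes most correlated with Fmn1 (mean log2 CPM of at least 1), tested genes within 1 Mb of Fmn1, and up to 2 called genes per list with the largest change; named events met the call rule or were added after their values were seen (Fmnl2, Fhod1 and the Fmn1 exon, and the exons just outside the rule). Members and lists were chosen with earlier results of these data known. Mutually exclusive exons have incomplete coordinates and none are printed. The contrast of the mutant groups was made here from the counts. A further list of genes is not reported here.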

Additional observations from a re-analysis of the deposited data

Results flagged for a closer look

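Among 36 groups of 4 libraries tested (9 formins in 4 groups), 3 held a library whose gap to the nearest other exceeded Dixon's critical value of 0.829 as a share of the group's range; chance flags about 1 in 20 groups. Fhod1 was at 19.9 CPM in WT Tnpo3 replicate 1, against 28.4 to 29.7 in the other WT Tnpo3 hearts. Fmnl3 was at 56.0 CPM in WT Ctr replicate 2, against 72.0 to 74.3 in the others. Fmnl3 was at 75.2 CPM in WT Tnpo3 replicate 4, against 64.9 to 65.5 in the others. The split of Fmn1 among the WT Tnpo3 hearts puts 2 libraries on each side and is not picked out by this measure.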

How the results depend on the processing

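The count of formins called in P635L Ctr against WT Ctr (2) was 1 without the filter on low counts, 1 without the 3 libraries rich in ENSMUSG00000119584 and 1 when a change of 2-fold or more was also required. It was 3 with only the groups compared and with DESeq2, which add Fhod3, and 3 without WT Ctr replicate 1, which adds Daam1. In P635L Tnpo3 against P635L Ctr it was 0, and 1 (Daam2, adjusted p = 0.037) when edgeR was fitted to those groups only. In P635L Tnpo3 against WT Ctr it was 1, and 2 with DESeq2, which adds Fhod3 (adjusted p = 0.023). In P635L Tnpo3 against WT Tnpo3 (2) it was 1 without the filter, without the 3 libraries with Xist above Y-linked genes and with 2-fold or more required, and 0 with Xist as a covariate and with only the compared groups; leaving out 1 replicate gave 0 to 2. In WT Tnpo3 against WT Ctr and in the interaction it was 0 in all 18 and 25 alternatives. The cause of these moves was not tested. Replicate numbers were not taken to pair the mice. Deviations of same-numbered libraries correlated at -0.26 to 0.55 (median -0.06), with 6 of 24 pairs over 0.1. Those of different-numbered libraries correlated at -0.33 to 0.25 (median 0.01), with 17 of 72 pairs over 0.1. The highest value, 0.55, was that of WT Ctr replicate 4 with WT Tnpo3 replicate 4. Such correlations cannot settle whether mice were paired. With the replicate block the counts were 2, 0, 0, 1 and 0, the last (P635L Tnpo3 against WT Tnpo3) down from 2, and the interaction stayed at 0. The splicing call in P635L Ctr (1) was 0 at an FDR under 0.01, 0 at a difference of 0.2, and 0 to 1 on leaving out 1 library. That in P635L Tnpo3 (1) was 2 at a difference of 0.05, 2 with no minimum of junction reads, 0 at a difference of 0.2, 0 at 20 reads, and 0 to 1 on leaving out 1 library. Without WT Ctr listed library 4 or P635L Tnpo3 listed library 2 or 4 the event counted was the 153-base exon of Fmnl3 in place of the Daam2 intron. The Fmnl3 exon difference between mutant groups ran from -0.0319 to 0.0677 on leaving out 1 library. The count of formins with no overlap between mutant groups (1) was 3 with upper-quartile scaling and 1 to 3 on leaving out 1 replicate. Low counts limit Fmn1 in mutant hearts, at 17 to 85 counts and, with a mean of 11.2 and 13.5 junction reads per library, the Daam2 intron.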
